A study of Mus musculus with 104 samples.

Results

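Chromosome 8 was described here as 250 kb bins of the mm9 genome, outside 3 windows at chr8:15500001-18000000, chr8:116500001-118500000 and chr8:120500001-122000000. The occupied bins outside the windows numbered 478, of 10270 occupied bins on chromosomes 1 to 19 and X, and they held 31022 of the 34950 junctions mapped to chromosome 8. The chromosome was selected on its junction density in these same data, and the windows were left out because they hold break clusters known from these data. The height of chromosome 8 above other chromosomes is therefore a description with no test.

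The method was HTGTS, a form of translocation sequencing: a break is cut at a known bait, it joins to breaks elsewhere in the genome, and the joined DNA (the prey) is amplified from the bait and read. All cells were mouse cells of mixed C57BL/6/129SVE background with the genotype Xrcc4-/- p53-/-, so the controls lack the end-joining factor Xrcc4 and the tumour suppressor p53 as well. The groups were neural progenitors (NPC), derived from embryonic stem cells (ESC), under aphidicolin (APH), which slows replicative DNA polymerases, NPC under the solvent DMSO, ESC under APH and ESC under DMSO. Each group had 6 pools, 1 for each of 2 lines with a bait on chromosome 7, 12 or 15, and 104 experiments made up the 24 pools. NPC of a line came from the ESC of that line, and each line is a single line, so pools of a line are no replicates of lines. The tables hold no expression values, so the cell type labels could not be checked against markers. The labels do not say whether experiments were separate cultures; the spread behind each p is that between pools and may be technical.

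Chromosome 8 carries no bait, so its junctions are joins between chromosomes. As background, a prey site is found the more often the more it is broken and the more often it meets the bait in the nucleus. Chromosome 8 is known as a chromosome that mouse ESC gain in culture; its copies were not measured in these tables, and their part in the densities was not tested. APH stress is known to give recurrent breaks in long genes of neural progenitors.

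The prey sequences below are those at the busiest position within 4 of the 5 kilobases with the most junctions, and they show how the reads there differed. They are printed 5′ to 3′ as read from the junction on, with the first 20 bases in capitals, since those bases were used to look for the same start of prey elsewhere.
Position 42513515, plus strand: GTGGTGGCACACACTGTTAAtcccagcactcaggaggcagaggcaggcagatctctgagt
Position 71822418, plus strand: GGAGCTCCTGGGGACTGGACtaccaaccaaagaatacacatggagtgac
Position 75881774, minus strand: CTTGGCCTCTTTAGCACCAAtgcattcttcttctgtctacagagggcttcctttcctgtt
Position 128579985, minus strand: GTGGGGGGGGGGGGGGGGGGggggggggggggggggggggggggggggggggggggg

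The sequence at position 42513515 came from 54 reads of the busiest 1 kb of the chromosome, which held 85 junctions, all of them in pools with the bait on chromosome 7. Its first 20 bases began 12 further prey elsewhere, so the place of these reads in the genome is uncertain. The 1 kb holding position 128579985 had 45 junctions in 10 pools, and each of them had prey of 80% or more G. So did all 28 junctions in the 1 kb from 23461001. The remaining sites held both strands and no G-rich prey. The 1 kb from 75881001 had 41 junctions at 19 positions, 23 on the plus and 18 on the minus strand, all in NPC pools with the bait on chromosome 15. The 1 kb from 71822001 had 34 junctions, likewise all with the bait on chromosome 15, with 18 in NPC under APH, 11 in NPC under DMSO, 2 in ESC under APH and 3 in ESC under DMSO. Of the 13 reads that begin as printed for position 71822418, 4 were placed on other chromosomes. Over chromosome 8, 68.6% of the 22531 distinct positions and strands were seen once over all pools, and 73.2% were found in 1 pool only. The rest recurred at the same position and strand in more than 1 pool, so reuse of exact positions was not limited to these sites. Its cause was not tested.

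Prey of 80% or more G made up 203 of the 31022 chromosome 8 junctions (0.654%), against 0.861% on the 15 other autosomes without a bait. All 203 came from sequencing runs whose read names begin with N, which gave 21143 of the chromosome 8 junctions. They reached 12.1% of the chromosome 8 junctions in the ESC line 1 bait 15 pool under APH, and were at most 0.320% in any NPC pool.

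Relative density was taken as the junctions per occupied bin on chromosome 8 over the junctions per bin on the 15 other autosomes without a bait, so that 1 means the same density. It was above 1 in all 24 pools, with a mean of 1.38 ± 0.109 (SD, n = 24), a lowest of 1.13 and a highest of 1.56. No other autosome without a bait was above 1 in all pools. In 17 of 24 pools chromosome 8 was the densest of the 16 autosomes without a bait (10 of the NPC and 7 of the ESC pools). Chromosome 19 followed with 1.23 ± 0.159 and chromosome 11 with 1.21 ± 0.116 (SD, n = 24 each), and their ranges over pools overlapped that of chromosome 8. The autosomes that each of these was set against include chromosome 8, so the scale differs slightly from that of chromosome 8. Chromosome X stood at 0.467 ± 0.0916 on the scale of chromosome 8.

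NPC pools under APH had a relative density of 1.35 ± 0.111 (lowest 1.14, median 1.40, highest 1.43), NPC under DMSO 1.43 ± 0.0686 (1.35, 1.44 and 1.54), ESC under APH 1.32 ± 0.113 (1.13, 1.35 and 1.42) and ESC under DMSO 1.42 ± 0.117 (1.24, 1.42 and 1.56; SD, n = 6 pools each). The 4 groups overlapped widely. They rest on unequal depth: NPC pools held 965 to 5320 chromosome 8 junctions with APH and 820 to 3555 with DMSO. ESC pools held 306 to 552 with APH and 257 to 843 with DMSO. In the shallowest pool, ESC line 1 bait 7 under DMSO, the value of 1.40 had a 95% Clopper-Pearson interval of 1.23 to 1.59. In the deepest, NPC line 1 bait 15 under APH, it was 1.38 with an interval of 1.34 to 1.42. These intervals cover counting error only, as PCR reads carry no molecular identifiers here.

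**Figure D1:**
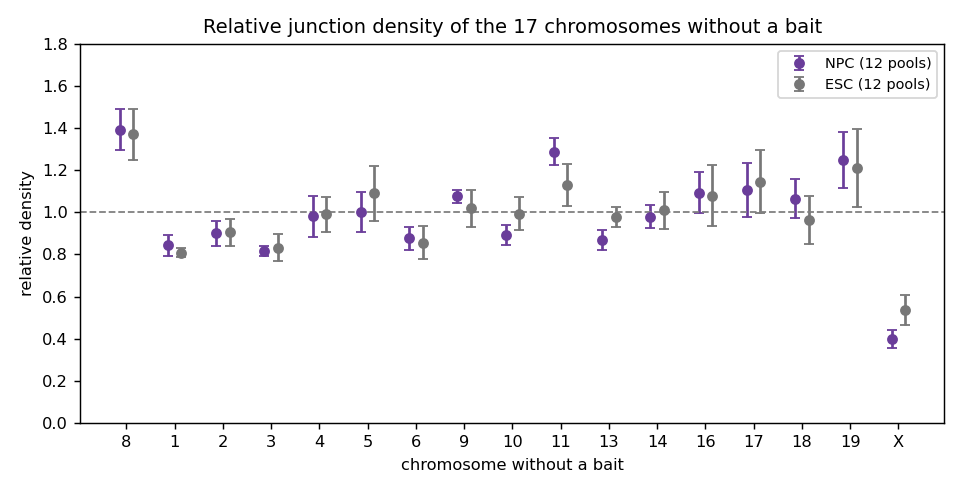
Relative junction density (y axis, no unit; 1 is the density of the other autosomes without a bait) of the 17 chromosomes without a bait (x axis), with points and bars for the mean and SD over 12 NPC (left) and 12 ESC pools. Chromosome 8, drawn first, had the highest mean in both cell types (1.39 in NPC and 1.37 in ESC), and chromosome X the lowest.

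**Figure D2:**
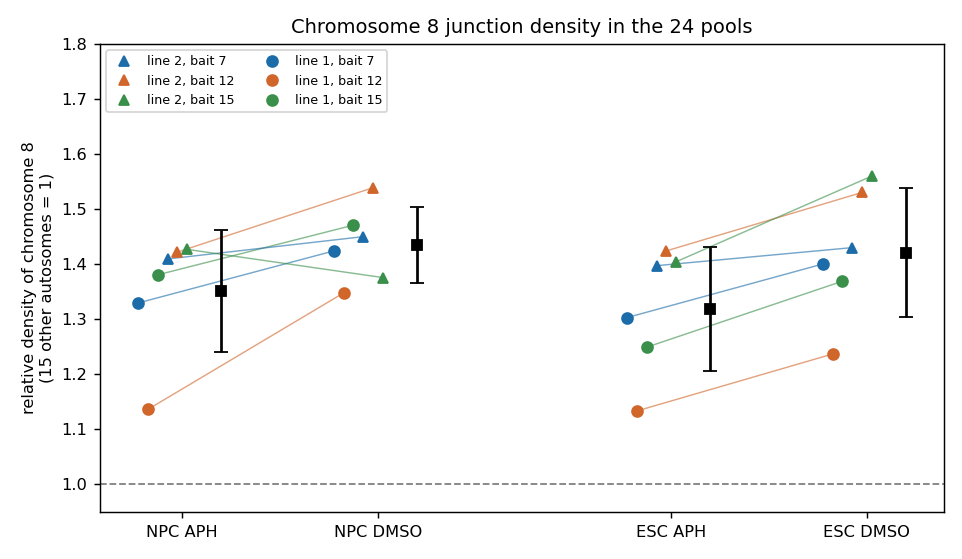
Relative density of chromosome 8 (y axis, no unit, starting above 0) in each pool, with lines joining the APH and DMSO pools of a line and bait, and black squares for the mean and SD of 6 pools. All 24 pools lie above the dashed line at 1, and in 11 of 12 pairs the APH pool lies below its DMSO pool.

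The median chromosome 8 bin held 58 junctions over all pools, against 39 on the 15 other autosomes, where single chromosomes ran from 35 to 52. The values of this paragraph are from junctions summed over pools, so they describe mostly the deep NPC pools. NPC gave 15479 of the 31022 chromosome 8 junctions under APH and 10328 under DMSO. Of the chromosome 8 bins, 76.4% were above the median bin of the other autosomes. On chromosome 19 this share was 76.1% and on chromosome 11 it was 66.8%. The 5th percentile of the bins was 25 junctions on chromosome 8, against 14 to 24.6 on the others. Outside the windows the coefficient of variation over bins was 0.551, and 13 of the 15 other autosomes had the same or a larger one. The densest 10% of these chromosome 8 bins held 22.6% of their junctions, against 21.7 to 31.1% on the others. Dense windows were left out of chromosome 8 alone, which works toward low values there, so neither comparison shows that chromosome 8 is more even.

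Along the chromosome the density was far from even. The 7 segments of 10 Mb from the centromeric end to 70 Mb ran from 0.829 to 1.42 times the autosomal density, and 4 of them were below 1. From 70 to 110 Mb the 4 segments lay between 1.31 and 1.54. The segment from 110 to 120 Mb stood at 2.01 ± 0.425 and that from 120 to 130 Mb at 2.81 ± 0.603 (SD, n = 24 pools), although both had windows left out of them. Among the 197 segments of 10 Mb on the 15 other autosomes, none was denser than 120 to 130 Mb of chromosome 8 and 2 were denser than 110 to 120 Mb. These were chromosome 5 from 130 Mb, at 2.70 and so close to the densest segment of chromosome 8, and chromosome 17 from 30 Mb, at 2.33. Dense distal ends were found on other chromosomes too: on 11 of the 15 others the last segment was above the mean of the rest. The ratio of the last segment to the rest was 2.23 on chromosome 8, the highest of the 16, and 1.81 on chromosome 4, the next. The segment from 120 to 130 Mb was the densest of the chromosome in 22 of 24 pools, and 110 to 120 Mb in the other 2.

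Taken as 3 stretches, whose borders were set after these values were seen, the 245 bins up to 70 Mb had a relative density of 1.05 ± 0.121 and were above 1 in 16 of 24 pools. The 160 bins from 70 to 110 Mb had 1.45 ± 0.175, and the 73 bins from 110 Mb to the end had 2.34 ± 0.425 (SD, n = 24). The last stretch held 15.3% of the bins and 25.2% of the junctions. With that stretch removed, the rest of chromosome 8 stood at 1.21 ± 0.107 and was above 1 in 23 of 24 pools. Chromosomes 11 and 19 stood at 1.21 and 1.23 as wholes, with no dense part removed, so the values are not like for like. Counting each position and strand once per pool gave 1.06, 1.45 and 2.26 for the 3 stretches, and leaving out G-rich prey gave 1.06, 1.47 and 2.31.

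**Figure D3:**
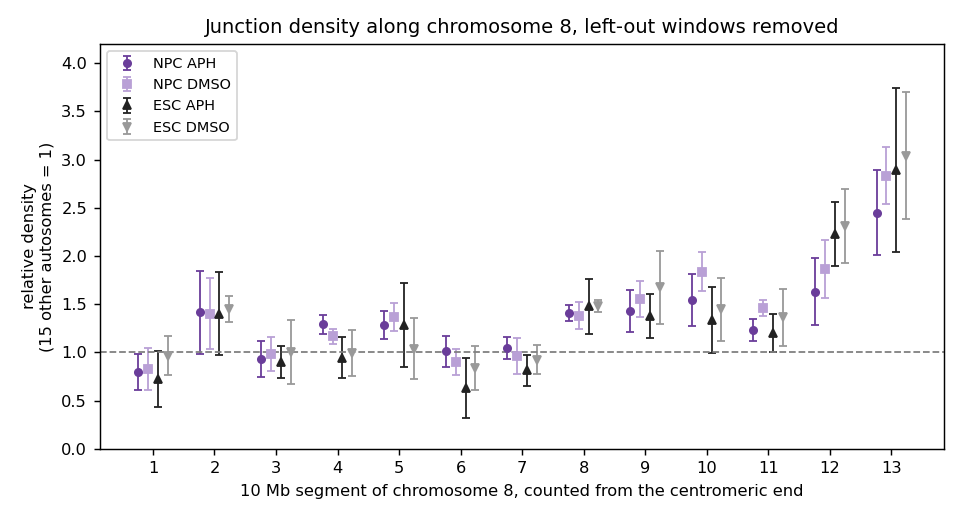
Relative density (y axis, no unit) of the 13 segments of 10 Mb of chromosome 8 in order from the centromeric end (x axis), left-out windows removed; points and bars are the mean and SD over 6 pools of each group. The means of the first 7 segments over all pools lie between 0.829 and 1.42, and the last 2 are the densest in each group.

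The 8 bins with the largest mean share of a pool's chromosome 8 junctions followed the same order, since 7 of them lay beyond 75 Mb. First stood chr8:42500001-42750000 at 4.18 times an even share, but 61.2% of its 139 junctions lay in the 1 kb at 42513001 described above. It was followed by chr8:123000001-123250000 at 3.46 times (228 junctions in 22 pools) and chr8:129500001-129750000 at 3.34 times (237 junctions in 21 pools). In these bins the busiest 1 kb held 3.51% and 2.95% of the junctions, so they were not made by single positions. Then came the bins from 114250001 (3.19 times), 122750001 (3.10), 111250001 (2.85), 75250001 (2.77) and 113250001 (2.74). The ninth bin, just outside, stood at 2.68. At the low end, chr8:57750001-58000000 held 2 junctions in all 24 pools together, chr8:20000001-20250000 held 11 and chr8:22250001-22500000 held 9. The share of each bin's sequence to which reads can be aligned was not analysed here.

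The left-out windows held 101, 199.5 and 220.3 junctions per bin from the first to the last. The 4 bins flanking the first window held 36 to 43, those flanking the second 45 to 84, and those flanking the last 77 to 135. A window's height is part of why it was left out, so these values are given with no test.

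APH and DMSO pools were compared to see how the density of chromosome 8 behaves under replication stress. In ESC, APH pools were lower than DMSO pools in 6 of 6 line and bait pairs, with a mean log2 difference of -0.11 ± 0.041 (SD over pairs) and a range of -0.15 to -0.03. The exact two-sided sign-flip permutation test gave p = 0.0312, the smallest that 6 pairs allow, and an adjusted p of 0.133 over the 17 chromosomes without a bait. With 6 pairs such a test could hardly pass after this adjustment, so no conclusion is drawn from the adjusted p. In NPC the mean difference was -0.09 ± 0.098, APH lower in 5 of 6 pairs (exact p = 0.0938, adjusted p = 0.212). The exception was line 2 bait 15, at 1.43 under APH and 1.38 under DMSO. These differences are relative to the other autosomes and depend on the windows, which lost junctions of chromosome 8 alone: with the windows kept the signs turned, to 0.01 in NPC and 0.06 in ESC. The windows held 2316 junctions under APH and 894 under DMSO in NPC, and 551 under APH and 167 under DMSO in ESC. Within single sequencing runs that held both treatments, going by the read names, APH was lower in 11 of 13 comparisons in NPC and in 12 of 14 in ESC. These comparisons also left out the windows. They split the same pairs of pools, so they are no further replicates.

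The differences of APH effects between NPC and ESC averaged 0.02 ± 0.106, higher in 3 of 6 pairs, with a range of -0.12 to 0.20 (exact p = 0.719, adjusted p = 0.812). NPC against ESC gave a mean log2 difference of 0.04 ± 0.055 under APH, higher in NPC in 5 of 6 pairs (exact p = 0.0625, adjusted p = 0.118), and 0.02 ± 0.108 under DMSO, again in 5 of 6 pairs (exact p = 0.781, adjusted p = 0.956). Under APH the pairs ranged from -0.002 to 0.14, and under DMSO from -0.18 to 0.12. Of the sequencing runs, 1 held NPC and ESC with the same line and bait, which was bait 15 in line 1, and it had 1.38 in NPC and 1.16 in ESC under APH, and 1.47 and 1.37 under DMSO.

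The cell types were also set side by side along the chromosome, as a description. From 110 Mb to the end, NPC pools were below the ESC pool of their line and bait in 6 of 6 pairs under APH and in 6 of 6 under DMSO. The border was set after the values were seen, and single segments were less uniform. From 110 to 120 Mb NPC were higher in 1 of 6 pairs under APH and 2 of 6 under DMSO. From 120 to 130 Mb they were higher in 2 of 6 and 1 of 6. Under APH the stretch from 110 Mb to the end stood at 2.01 ± 0.348 in NPC against 2.45 ± 0.518 in ESC. Under DMSO it stood at 2.31 ± 0.279 in NPC against 2.60 ± 0.361 in ESC (SD over 6 pools), so the groups overlapped. From 70 to 110 Mb NPC were higher in 4 of 6 pairs under APH and in 3 of 6 under DMSO. Up to 70 Mb NPC were higher in 5 of 6 pairs under each treatment: 1.12 ± 0.128 in NPC and 0.962 ± 0.121 in ESC under APH, and 1.09 ± 0.0873 and 1.02 ± 0.101 under DMSO. With each position counted once per pool, NPC were lower beyond 110 Mb in 6 of 6 pairs under APH and in 4 of 6 under DMSO. Without the G-rich prey, which was more frequent in ESC, they were lower in 6 of 6 under both.

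The cell types were then compared in counts of 260 segments of 10 Mb over the whole genome with edgeR's quasi-likelihood test and line and bait blocks, a test added after the data were seen. For NPC against ESC under APH, 22.3% of all segments passed an adjusted p of 0.05, and of the 13 on chromosome 8, 3 passed (2 higher and 1 lower), a share near that background. The model has no block for a cell type within a line and bait. It therefore takes the APH and DMSO pools of the same cells as independent, and its p may be too small. This limit holds for NPC against ESC in the bins below as well. The segment from 50 to 60 Mb rose in NPC (log2 fold change 0.74 ± 0.204 SE, adjusted p = 0.00652). Its relative densities under APH were 0.951, 1.07, 1.11, 0.804, 1.24 and 0.892 in NPC pools, and 0.599, 0.981, 0.223, 0.967, 0.679 and 0.353 in ESC pools (line 1 baits 7, 12 and 15, then line 2). The NPC pool was higher in each pair except line 2 bait 7, and the groups overlapped. The segment from 30 to 40 Mb rose as well (0.44 ± 0.141, adjusted p = 0.0190), at 1.29 ± 0.102 in NPC pools against 0.946 ± 0.213 in ESC pools. The segment from 110 to 120 Mb fell (-0.44 ± 0.135, adjusted p = 0.0137), at 1.63 ± 0.348 in NPC pools against 2.23 ± 0.330 in ESC pools (SD over 6 pools). Each had the same sign in both lines, and each passed with library sizes in place of TMM scaling. The densest segment, from 120 to 130 Mb, did not pass (-0.22 ± 0.143, adjusted p = 0.264). Without the replicate block the adjusted p was 0.0466 for both segments that rose and 0.120 for the one that fell.

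Under DMSO none of the 13 segments passed for NPC against ESC, where 4.23% of all segments did, and the segment from 120 to 130 Mb stood at -0.03 ± 0.148 (adjusted p = 0.911). For APH in NPC none passed against 16.5% of all segments, for APH in ESC none against 1.92%, and none for the difference of APH effects or for line 2 against line 1, where 0% of all segments passed. In NPC the segment from 90 to 100 Mb was nearest for APH, at -0.26 ± 0.101 (adjusted p = 0.0792); with library sizes in place of TMM it and the segment from 100 to 110 Mb passed as lower (adjusted p = 0.0260 and 0.0446).

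At 250 kb few bins were deep enough to test. Of the 478 bins, 19 passed the filter on low counts, 10 of them beyond 120 Mb, so the bins tested stand for the dense distal end and not for the chromosome. The share of bins kept, 3.97%, was above that of each other chromosome without a bait. Of the 366 bins tested over the genome, 237 lay on the chromosomes that carry a bait. The shares and medians over all 366 bins, here and below, therefore describe mostly those chromosomes. For APH in NPC, 10.7% of the 366 bins tested over the genome passed the edgeR test, and 1 of 19 did on chromosome 8. This was chr8:124750001-125000000, lower under APH (-1.39 ± 0.471 SE, adjusted p = 0.0298). Per 10000 junctions outside the bait zone, it held 0.957, 0.431, 2.03, 0.458, 1.23 and 2.40 in the NPC pools under APH (line 1 baits 7, 12 and 15, then line 2), and 6.19, 1.69, 4.41, 1.89, 2.40 and 2.73 under DMSO. The APH pool was lower in each pair, and the groups overlapped; the bin held 42 junctions in NPC under APH and 52 under DMSO. With library sizes in place of TMM scaling it no longer passed (adjusted p = 0.0725). It was also lost when any pair of pools other than line 2 bait 15 was left out, which gave 0 bins. DESeq2 called 1 bin of chromosome 8 too, where it called 15.3% of all bins, but as higher under APH. Next in NPC were the bins from 123250001 (-1.30, adjusted p = 0.0817) and 126000001 (-1.15, adjusted p = 0.124), which did not pass.

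For APH in ESC no bin of chromosome 8 passed, while 4.64% of all bins did, and 5 of 19 were under an unadjusted p of 0.05, as were 12.3% of all bins (DESeq2 called none as well, with 2 of 19 under 0.05). The smallest p were at chr8:123250001-123500000 (-1.88 ± 0.681, adjusted p = 0.113), chr8:129500001-129750000 (1.96 ± 0.752, adjusted p = 0.136) and chr8:87250001-87500000 (-1.55 ± 0.723, adjusted p = 0.312). The bin at 129500001 held 6.20 ± 6.32 junctions per 10000 in ESC under APH and 1.65 ± 1.86 under DMSO, and in NPC 4.98 ± 1.44 under APH and 3.11 ± 1.39 under DMSO (SD, n = 6 each).

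For NPC against ESC under APH 3 of 19 bins passed, against 26% of all bins, with the limit on p given for the segments. The bin chr8:49250001-49500000 rose (1.67 ± 0.563, adjusted p = 0.0154). Per 10000 junctions it held 3.83, 5.60, 5.65, 7.79, 6.13 and 3.74 in NPC under APH, and 1.64, 1.18, 2.90, 2.34, 5.47 and 0 in ESC under APH (line 1 baits 7, 12 and 15, then line 2). The NPC pool was higher in each pair, and both groups overlapped only through the ESC pool at 5.47. The bin chr8:124500001-124750000 also passed (1.70 ± 0.676, adjusted p = 0.0470), at 0.957, 0.862, 4.29, 4.12, 2.45 and 5.09 in NPC and 3.28, 3.54, 0, 0, 0 and 1.29 in ESC in the same order. NPC were lower in the line 1 pairs with bait 7 and bait 12, and the log2 fold change was 0.70 in line 1 and 3.66 in line 2. Lower in NPC was chr8:128500001-128750000 (-1.54 ± 0.548, adjusted p = 0.0234), at 1.22 ± 0.896 in NPC and 5.70 ± 7.19 in ESC. Its highest NPC pool under either treatment stood at 3.77, so this bin passed the filter on low counts through ESC pools. The filter thus favoured a lower value in NPC, and no conclusion is drawn from the call. That bin holds the 1 kb of G-rich prey, and without such prey no chromosome 8 bin passed as lower. The scaling matters here: the median over all 366 bins was 0.36 with TMM and -0.13 with library sizes, and with library sizes 2 bins passed as lower and none as higher. DESeq2 called 6 of 19 bins, all as higher, where it called 34.4% of all bins. Without the line 2 bait 7 pair edgeR called 1 of 19, where it called 24.6% of all bins.

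Under DMSO no bin passed for NPC against ESC (6.56% of all bins did; 3 of 19 were under an unadjusted p of 0.05, as were 23.5% of all bins, and DESeq2 called none). The smallest p were in the bins from 129500001 (1.64, adjusted p = 0.140), 49250001 (1.39, adjusted p = 0.198) and 129750001 (1.42, adjusted p = 0.206), with a median over all bins of 0.64. None passed for the difference of APH effects (0% of all bins; 1 of 19 under an unadjusted p of 0.05, where 9.29% of all bins were, the bin from 42500001 with adjusted p = 0.537) or for line 2 against line 1 (0% of all bins; 0 of 19), and DESeq2 called none in either.

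In each cell type the pool with the lowest value of chromosome 8 was one of line 1 with bait 12. Line 2 had a relative density of 1.45 ± 0.0609 and line 1 of 1.32 ± 0.108 (SD, n = 12 pools each), and line 2 was higher in 11 of the 12 pairs that share cell type, bait and treatment. The exception was NPC bait 15 under DMSO, at 1.38 in line 2 and 1.47 in line 1. The mean log2 difference was 0.14, and with bait 12 left out it was 0.07, with line 2 higher in 7 of 8 pairs. The widest gaps were with bait 12, at 1.42 in line 2 and 1.14 in line 1 for NPC under APH, and at 1.42 and 1.13 for ESC under APH. By stretch, line 2 was higher in 10 of 12 pairs up to 70 Mb, in 8 of 12 from 70 to 110 Mb and in 8 of 12 beyond.

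**Figure D4:**
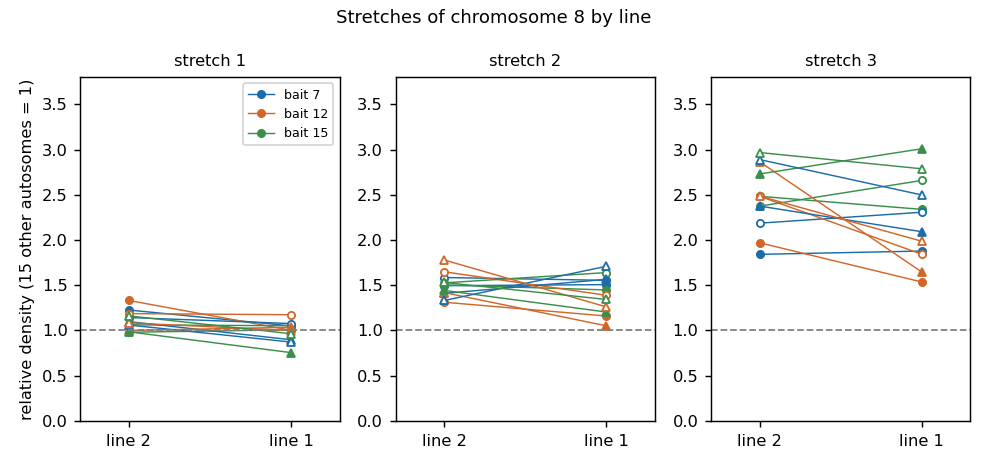
Relative density (y axis, no unit) of chromosome 8 from the start to 70 Mb (stretch 1), from 70 to 110 Mb (stretch 2) and beyond 110 Mb (stretch 3), with lines joining the line 2 and line 1 pools that share cell type, bait and treatment. Circles are NPC and triangles ESC, filled under APH and open under DMSO; the lowest value of stretch 3, 1.54, is that of NPC line 1 bait 12 under APH.

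By bait, the means were 1.39 ± 0.0508 for bait 7, 1.35 ± 0.162 for bait 12 and 1.40 ± 0.0893 for bait 15 (SD, n = 8 pools each). Over pools, bait 12 alone had a gap between the lines: 1.48 ± 0.0645 in line 2 and 1.21 ± 0.102 in line 1 (SD, n = 4 pools each), with no overlap. For bait 7 the same values were 1.42 ± 0.0232 and 1.36 ± 0.0572, and for bait 15 they were 1.44 ± 0.0816 and 1.37 ± 0.0910, with overlap. Single experiments with bait 12 did overlap between the lines under DMSO. The highest of line 1 stood at 1.61 in NPC and 1.44 in ESC, and the lowest of line 2 at 1.44 and 1.37. Under APH they did not overlap within either cell type. By the read names, no sequencing run held both lines with bait 12, so line and run cannot be told apart there. These values of the lines are a description.

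Single experiments are parts of the same pools, so their values are a further description of the height and no support for it. In the 88 experiments of the 21 tables whose letters match the labels, the relative density was above 1 in 86, with a median of 1.37, a lowest of 0.866 and a highest of 1.70. In 75 the 95% Clopper-Pearson interval lay wholly above 1. These intervals cover counting error only. Chromosome 8 was selected on the same junctions, so they are no test of its height. Both experiments below 1 were of ESC line 1 bait 12 under APH (0.931 from 117 and 0.866 from 31 chromosome 8 junctions). Outside line 1 bait 12, all 72 experiments were above 1. Within NPC line 1 bait 12, experiments A and C lay above B and D under DMSO with intervals that did not overlap: under DMSO experiments A and C stood at 1.61 and 1.57 and experiments B and D at 1.17 and 1.15, and under APH experiment D stood at 1.04 while A, B and C lay between 1.21 and 1.28. Each letter was read in its own sequencing run there, the same for APH and DMSO, so run and experiment cannot be told apart.

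The form of the junctions on chromosome 8 was set beside that on the other autosomes without a bait. Bases shared by the ends of bait and prey (microhomology of at least 1 base) were found at 70.8 ± 7.11% of chromosome 8 junctions and at 69.9 ± 7.45% elsewhere (SD, n = 24 pools), and chromosome 8 was higher in 14 of 24 pools. Junctions with inserted bases made up 22.0 ± 7.16% on chromosome 8 and 23.1 ± 7.26% elsewhere, and chromosome 8 was higher in 5 of 24 pools. Direct joins made up 7.18 ± 1.96% and 7.04 ± 1.40%, higher on chromosome 8 in 9 of 24 pools. Prey on the plus strand made up 47.9 ± 3.06% on chromosome 8 and 48.9 ± 3.21% elsewhere, with chromosome 8 higher in 6 of 24 pools. Each distinct position held 1.13 ± 0.135 reads on chromosome 8 and 1.12 ± 0.119 elsewhere. Within chromosome 8, microhomology was found at 76.3 ± 1.42% in NPC under APH and 76.9 ± 3.54% in NPC under DMSO, and at 64.8 ± 3.81% and 65.2 ± 6.36% in ESC (SD, n = 6 pools each). Chromosome 8 minus elsewhere averaged 0.871 ± 1.87 percentage points per pool, so this gap was not particular to chromosome 8. NPC and ESC of a line and bait shared a sequencing run only for line 1 bait 15, so run and cell type are largely confounded.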

How the data were processed

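Junctions of 104 HTGTS experiments were read from 24 deposited tables of 1 junction per row, and the authors deposited them as counts without normalization, per the file headers. Amplification from the bait was linear, per the labels' protocols. The submitters' processing notes name Bowtie2 and mm9; versions and the junction caller are not given in the sources used. Rows that repeat a read name within a table were removed, 18609 in all, which left 2018794 junctions; 3 tables had experiment letters that do not match the labels and served as pools only. The members, windows and lists were chosen with earlier results of these data known.

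Densities used occupied bins of 250 kb, and the 24 bins of the windows were left out. Segments of 10 Mb needed 20 occupied bins. Pairs of pools share the line and bait; over the 17 chromosomes their deviations from the group means correlated between APH and DMSO, at 0.310 to 0.690 for the NPC pairs and 0.393 to 0.691 for the ESC pairs. Bins were tested with edgeR 4.0.16 (R 4.3.3; quasi-likelihood, TMM, filterByExpr with a minimum count of 5, Benjamini-Hochberg) without bins within 5 Mb of any bait break. Models had 12 blocks of cell type, line and bait for APH, 6 blocks of line and bait for NPC against ESC, and 12 blocks of cell type, bait and treatment for the lines. DESeq2 1.42.0 was an alternative, and intervals came from scipy 1.17.1. Scripts were tested on simulated data. The bins named are, per comparison, up to 5 in each direction with the smallest adjusted p under 0.05 and the same sign in both lines, or, with fewer than 3 passing, the 3 of lowest p; the 8 densest and 3 sparsest bins; the 5 busiest kilobases; and the bins beside the windows. No gene is named, since no mm9 annotation was used here.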

Additional observations from a re-analysis of the deposited data

Results flagged for a closer look

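Of 20 sets of 6 pools looked at (chromosome 8, its 3 stretches and chromosome X in each group), 2 had a pool that stood far from the others, where chance gives about 1 in 20. The NPC line 1 bait 12 pool under APH had a chromosome 8 relative density of 1.14, and the nearest of the other NPC pools under APH stood at 1.33. The ESC line 2 bait 15 pool under DMSO had a chromosome X relative density of 0.687, and the nearest ESC pool under DMSO stood at 0.551.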

How the results depend on the processing

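Of the densities, the group means kept within 1 SD under the alternatives except with the 3 windows kept (1.49 in NPC under APH and 1.51 in ESC under APH) and against all chromosomes other than the own bait chromosome (1.52 in NPC under DMSO). With the windows kept the log2 differences turned to 0.0572 for APH in ESC, 0.0131 for APH in NPC, -0.0148 for NPC against ESC under APH and -0.0442 for the difference of APH effects. That difference also turned with each position and strand counted once (-0.0238), and NPC against ESC under DMSO turned with a median over 10 Mb segments (-0.00876), an alternative chosen after seeing the data. With 6 pairs, or 5 with a pair left out, the sign-flip tests could hardly pass after adjustment over 17 chromosomes, so their p says nothing on stability. Without the replicate block the adjusted p was 0.546 for APH in ESC, 0.360 for APH in NPC, 0.684 for NPC against ESC with APH and 0.978 with DMSO. Leaving out each line and bait pair gave -0.12 to -0.10 for APH in ESC, -0.12 to -0.06 for APH in NPC, 0.0132 to 0.0425 for NPC against ESC with APH, -0.00513 to 0.0559 with DMSO, and -0.0185 to 0.0464 for the difference. Line 2 against line 1 was 0.10 (SE 0.0316, adjusted p = 0.0192) in edgeR on counts per chromosome, also chosen after seeing the data, and 0.05 (adjusted p = 0.378) there without bait 12. That fit takes the pools of a line and bait under APH and DMSO as independent, which their correlation goes against, so its p is too small. The planned median over single bins could not be had, since it was 0 in 9 pools.

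Counts of chromosome 8 bins called moved with depth per bin and with the filter. Each count stands with the share of chromosome 8 bins and then of all bins called. For APH in ESC they were 1 with 500 kb bins (1.54% and 2.27%) and 1 with single experiments (5.26% and 6.01%). For APH in NPC they were 2 with 500 kb bins (3.08% and 8.39%) and 2 with 1 Mb bins (2.06% and 5.34%), all higher where the 250 kb bin was lower, 5 with single experiments paired by letter (26.3% and 25.7%), and 0 with library sizes, with positions counted once, with line 1 left out, without the replicate block and in 10 Mb segments. For NPC against ESC under APH they were 8 with 500 kb bins (12.3% and 17.1%), 7 with 1 Mb bins (7.22% and 8.70%), 55 with no filter (11.5% and 8.02%), 6 with DESeq2 (31.6% and 34.4%), 25 with a minimum count of 2 (9.29% and 10.6%), 1 with positions counted once (25% and 34.4%), 1 with line 1 left out (5.26% and 9.56%) and 0 without the replicate block. Under DMSO they were 40 without the filter (8.37% and 4.74%), 5 with a minimum count of 2 (1.86% and 1.57%) and 1 without G-rich prey (5.26% and 7.43%). Leaving out each pair gave 0 to 1 for APH in ESC, 0 to 1 for APH in NPC (1 only without line 2 bait 15) and 1 to 4 for NPC against ESC under APH. The causes were not tested. The minimum count of 2, the 10 Mb segments and the removal of G-rich prey were chosen after seeing the data.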
